A study of Mus musculus with 12 samples.

Results

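Levels of 10 heat-shock and cold-inducible genes were measured in brain and liver of mice that carry or lack Vaultrc5, the gene of a small non-coding vault RNA. The genes were taken by symbol from the table of all genes: Hspa1a, Hspa1b, Hsph1, Dnajb1, Hspa8, Hsp90aa1, Hspb1, Hspa5, Cirbp and Rbm3, 10 of 55450 rows. All 10 passed the filter on low counts in every comparison. Male mice aged 7 to 9 weeks gave 4 groups of 3 libraries each: wild-type brain, knockout brain, wild-type liver and knockout liver. The genotypes are Vaultrc5+/+ and Vaultrc5-/-. The titles mark the wild-type libraries as flx, and the labels name no Cre driver, strain or time of dissection. Libraries are called here by group and by the number 1, 2 or 3 in their title. The labels do not say which animal each library came from, so the p-values measure the spread between these libraries, which may be in part technical.

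Heat-shock proteins are chaperones: they bind unfolded proteins and help them to fold, to be moved or to be degraded. The factor HSF1 raises the transcription of many of them within minutes of heat or proteotoxic stress by binding heat shock elements, inverted repeats of the unit GAA. The cold-inducible RNA-binding proteins CIRBP and RBM3 move the other way with temperature, rising on mild cooling and falling on warming, and in the intact animal both sets also follow the daily body temperature rhythm. Chaperones of the endoplasmic reticulum answer to a separate pathway, the unfolded protein response, through the ER stress element.

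Upstream sequences are shown for the elements that the members share or do not share. Start sites from a set of RefSeq promoters on GRCm38.p6 were matched for 7 of the 10 genes. Hspa8, Hsp90aa1 and Rbm3 had no entry in that set. Each line gives the 250 bases before the start, 5′ to 3′ on the gene's strand, with heat shock elements in capitals or, for Hspa5 and Cirbp, the element named for it. The first pair, from Hspa1a and Hspa1b, holds 1 heat shock element of 2 units each. The Hspb1 sequence holds 2 such elements. The Hspa5 sequence holds an ER stress element, and that of the first of 2 Cirbp starts a mild-cold response element; the window of the second start holds none of the elements searched.
Hspa1a, chr17:34972157-34972406, minus strand: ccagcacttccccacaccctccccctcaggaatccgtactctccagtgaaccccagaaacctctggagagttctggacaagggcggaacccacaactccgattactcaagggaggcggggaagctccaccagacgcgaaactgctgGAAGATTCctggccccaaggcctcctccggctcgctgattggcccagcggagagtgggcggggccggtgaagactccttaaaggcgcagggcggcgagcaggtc
Hspa1b, chr17:34959239-34959488, minus strand: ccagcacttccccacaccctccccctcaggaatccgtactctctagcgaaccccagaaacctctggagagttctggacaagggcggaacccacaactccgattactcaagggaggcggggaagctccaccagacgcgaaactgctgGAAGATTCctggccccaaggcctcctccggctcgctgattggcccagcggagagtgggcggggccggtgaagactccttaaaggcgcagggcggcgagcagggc
Hspb1, chr5:135887669-135887918, plus strand: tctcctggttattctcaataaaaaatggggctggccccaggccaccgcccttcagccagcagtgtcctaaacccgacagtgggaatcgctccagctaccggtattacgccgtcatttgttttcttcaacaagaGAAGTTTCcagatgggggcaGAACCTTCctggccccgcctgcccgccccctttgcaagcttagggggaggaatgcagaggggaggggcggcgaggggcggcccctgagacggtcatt
Hspa5, chr2:34771840-34772089, plus strand: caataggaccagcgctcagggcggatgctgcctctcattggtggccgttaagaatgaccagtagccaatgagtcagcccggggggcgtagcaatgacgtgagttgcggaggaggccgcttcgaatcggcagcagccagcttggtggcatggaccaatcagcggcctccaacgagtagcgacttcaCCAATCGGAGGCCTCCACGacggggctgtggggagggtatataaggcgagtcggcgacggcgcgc
Cirbp, chr10:80167589-80167838, plus strand: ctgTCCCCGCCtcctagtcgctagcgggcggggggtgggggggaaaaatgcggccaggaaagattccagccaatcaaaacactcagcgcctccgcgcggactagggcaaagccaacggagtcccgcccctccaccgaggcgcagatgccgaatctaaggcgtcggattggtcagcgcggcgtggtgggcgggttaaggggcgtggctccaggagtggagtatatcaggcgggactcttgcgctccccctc
Hsph1 held the only match to a heat shock element of 3 units among the 7 genes. That match begins 15 bases after a first start and 36 bases after a second. It is shown in capitals within 30 bases. Hsph1 also holds an element of 2 units before each start.
Hsph1, chr5:149636279-149636308, minus strand: gctgcagaTTCTGGAAAGTTCtcctcagta

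Each search covered 300 bases, 250 before the start and 50 after it, on both strands. The element of 2 units was written GAANNTTC or TTCNNGAA, and 15.1% of the 32851 RefSeq promoters in the table held it. The element of 3 units, GAANNTTCNNGAA or TTCNNGAANNTTC, contains the shorter one and was held by 0.603%. The ER stress element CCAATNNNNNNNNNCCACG was held by 0.119%, and the mild-cold response element TCCCCGCC by 5.38%. The last motif also matched once each on the other strand of Hspa1a and Hspa1b, within the bases shown and left in lower case there, and after the start of a second Dnajb1 transcript. Neither Dnajb1 window held a heat shock element in these letters. A match describes the sequence and is no evidence of binding.

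Hspa1a and Hspa1b, the stress-inducible HSP70 genes, are near-identical copies that lie side by side on the minus strand of chromosome 17. Of the 250 upstream bases shown above, 247 were identical between them. Their coding sequences, 1923 and 1926 bases without the stop codon, matched at 1915 positions. Of all 50-base windows of the coding sequence of Hspa1a, 82.4% also occur in the Hspa1b transcript, whereas 0.0% of the windows after its stop codon do. The counts of both genes were fractional in 12 of 12 libraries, while the sum of Hspa1a, Hspa1b and their relative Hspa1l was a whole number within 0.02 in 12 of 12, as when whole reads are divided between the 3 genes. The values of the single copies are therefore uncertain, and the sum of both is given beside them. Fractional counts also occurred in 12 libraries for Hspa8, Hsp90aa1 and Rbm3, in 2 for Hspb1 and in 1 for Hspa5. They did not occur for Hsph1, Dnajb1 and Cirbp.

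In GRCm38 the exons of Hspa8 overlap those of 3 snoRNA genes on the same strand, Snord14c, Snord14d and Snord14e, by 86 to 90 bases each. The antisense gene Rbm3os overlaps 94 exonic bases of Rbm3, and Gm20481 overlaps 564 exonic bases of Hspa1a on the opposite strand. Whether the counting used the strand is not given in the sources used here, so reads of these partners cannot be told apart from those of the members in the overlaps.

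Summed counts per library ran from 14844971 to 18567381 in the 6 brain libraries, and from 23247449 to 27155480 in the 6 liver libraries. Vaultrc5 had 33 to 48 counts in wild-type liver, 1 to 4 in wild-type brain and 0 in all 6 knockout libraries. The hepatocyte markers Alb, Apoa1 and Cps1 summed to at least 49662 CPM in each liver library and at most 1.196 CPM in each brain library. CPM is the count per 1000000 counts of a library, scaled over the 12 libraries by edgeR's TMM factors. The neuron markers Snap25, Syt1 and Rbfox3 summed to 2362 to 3173 CPM in brain and 25.7 to 34.6 CPM in liver. Among brain libraries the oligodendrocyte markers Mbp and Mog ranged from 752 to 2561 CPM in sum and the choroid plexus markers Ttr, Folr1 and Kl from 2.91 to 468 CPM.

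Levels were also taken per kilobase of the merged exons of all transcripts annotated for a gene. That length ran from 1031 bases for Hspb1 to 7266 for Hsph1, and the order depends on it. By this measure the constitutive HSP70 gene Hspa8 had the highest mean level of the 10 genes in each group. In wild-type brain it stood at 216 ± 30.1 CPM per kb (SD, n = 3). The inducible cytosolic HSP90 gene Hsp90aa1 followed at 131 ± 16.7, Hspa5 at 25.6 ± 2.41 and Hsph1 at 20.2 ± 5.69 CPM per kb. Below these came Cirbp at 10.4 ± 1.60, Rbm3 at 10.2 ± 2.19 and Dnajb1 at 7.83 ± 1.10 CPM per kb. The small heat-shock protein gene Hspb1 had 2.69 ± 1.30, Hspa1a 2.00 ± 0.536 and Hspa1b 1.75 ± 0.024 CPM per kb. By overlap of the bands of mean ± 1 SD, Hspa5 and Hsph1 were not separated in that order, nor were Cirbp, Rbm3 and Dnajb1, nor the last group of Hspb1, Hspa1a and Hspa1b.

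In wild-type liver Hspb1 and Hspa1b stood higher in the order and Hsph1 lower. Hspa5 stood next to Hspa8, at 147 ± 8.84 CPM per kb beside 206 ± 38.0 for Hspa8 (SD, n = 3). In knockout liver the bands of both overlapped, at 156 ± 49.0 for Hspa5 and 202 ± 36.7 for Hspa8, and in knockout liver 2 Hspa5 stood above Hspa8. Hsp90aa1 had 39.4 ± 6.67 CPM per kb. Then came Hspb1 at 11.0 ± 1.13, Rbm3 at 9.23 ± 0.776, Hspa1b at 8.55 ± 3.67 and Cirbp at 7.07 ± 2.25 CPM per kb. Hsph1 had 6.23 ± 1.96, Dnajb1 5.23 ± 1.24 and Hspa1a 0.703 ± 0.431 CPM per kb. From Hspb1 down to Dnajb1 the bands of mean ± 1 SD of neighbours overlapped, and Hspa1a lay below them all. The lowest Hspa1a value, 0.847 CPM in wild-type liver 1, still lay above the level that 3 counts give in any library, 0.123 to 0.169 CPM.

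**Figure D1:**
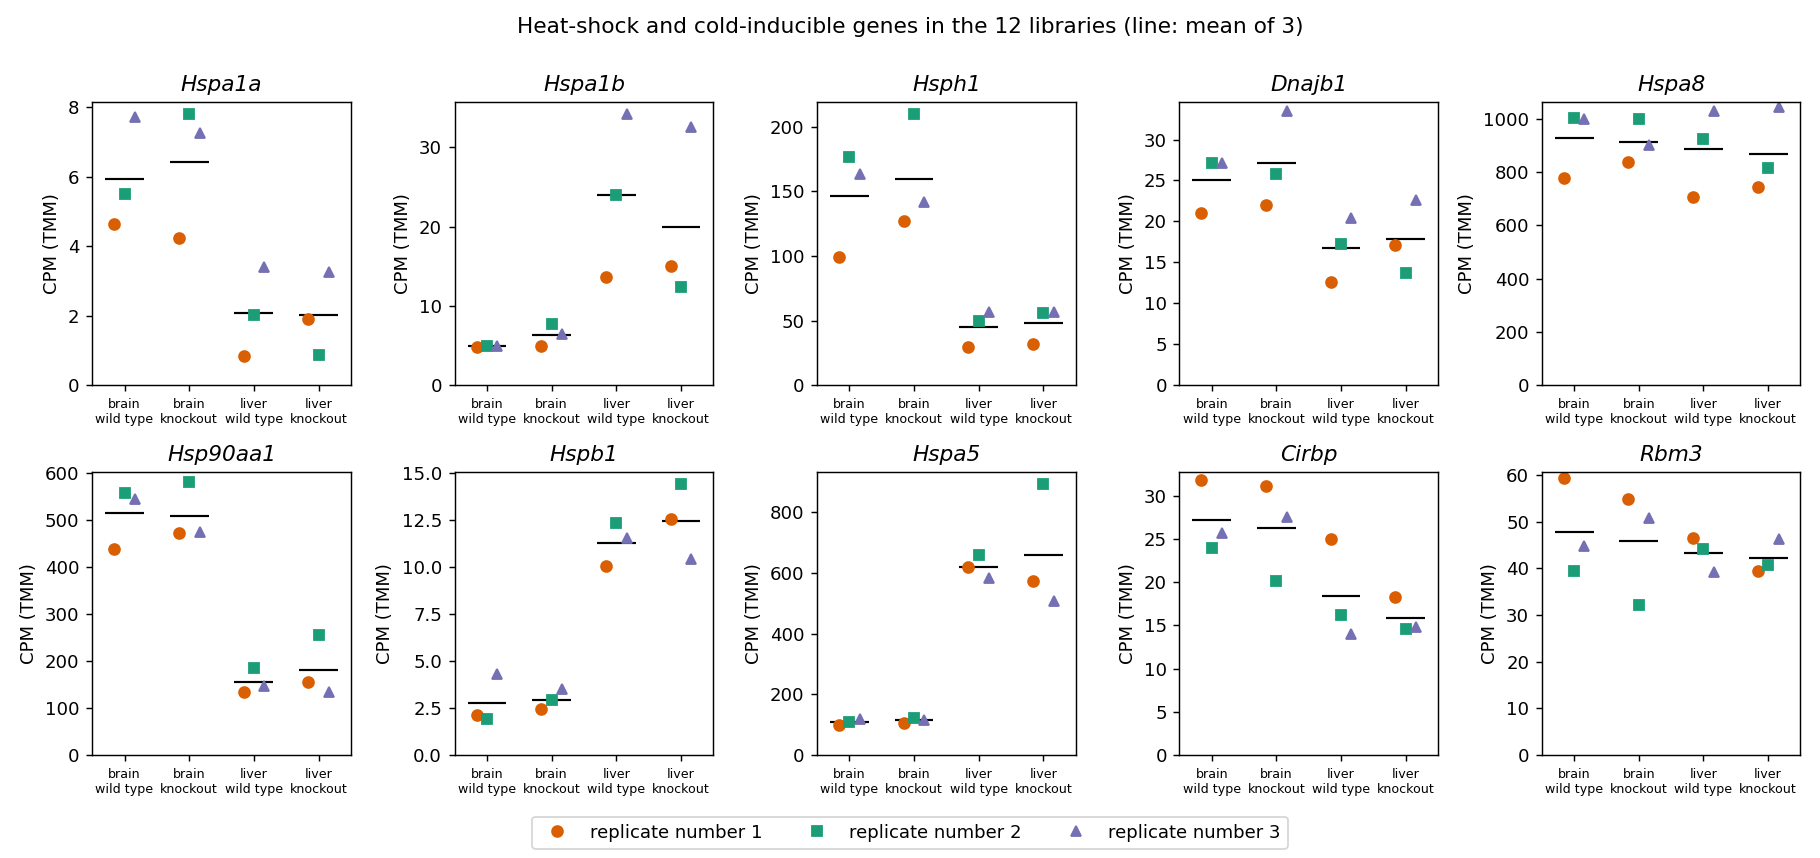
Level of each of the 10 genes in each library, in CPM with TMM scaling (linear axes from 0), by group. Points are libraries, marked by the number in their title, and lines are means of 3. In each panel wild-type and knockout libraries of a tissue overlap, while the tissues separate for Hspa1a, Hspa1b, Hsp90aa1, Hsph1, Hspb1 and Hspa5.

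The first comparison asked whether loss of Vaultrc5 changes the levels of these genes. None of the 10 differed between knockout and wild type by edgeR's quasi-likelihood test (adjusted p under 0.05), in brain (background 0.0% of 18075 genes called) or in liver (0.0% of 15329). At an unadjusted p under 0.05 the count of members was also 0 in both tissues, beside 0.675% of all genes in brain and 3.5% in liver. DESeq2 called 0 members in either tissue. In no member were the libraries of one genotype all above those of the other, which was so for 4.23% of genes in brain and 9.64% in liver. The median log2 change of the 10 was 0.06 in brain, beside -0.01 for all genes tested, and 0.04 in liver, beside 0.01.

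Among the inducible HSP70 genes, Hspa1a had 4.62, 5.50 and 7.71 CPM in wild-type brain 1, 2 and 3 and 4.24, 7.80 and 7.27 CPM in knockout brain. Hspa1b had 4.84, 4.88 and 4.97 CPM in wild-type brain and 4.90, 7.76 and 6.46 CPM in knockout brain. The wild-type values of Hspa1b lay close together, and the knockout values reached from within them to above them. Its difference, 0.37 ± 0.20 (log2, SE), was the largest of the 10 in brain and had an adjusted p of 1.00 by edgeR (unadjusted 0.0996). For the sum of both copies the brain difference was 0.23 ± 0.22 (log2, SE).

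In liver, Hspa1a had 0.847, 2.01 and 3.40 CPM in the wild type and 1.91, 0.875 and 3.26 CPM in the knockout. Hspa1b had 13.7, 24.0 and 34.3 CPM in wild-type liver and 14.99, 12.3 and 32.5 CPM in knockout liver. The third library of either genotype was the highest for both copies, and the genotypes overlapped. These are also the least precise of the 10: the 95% interval of the liver difference ran from -1.46 to 1.38 on the log2 scale for Hspa1a and from -1.49 to 0.99 for Hspa1b. The liver difference of the sum was -0.24 ± 0.51 (log2, SE).

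Hsph1 encodes HSP110, a nucleotide exchange factor of HSP70 that also prevents aggregation. It had 99.4, 177 and 163 CPM in wild-type brain and 127, 209.9 and 142 CPM in knockout brain, a difference of 0.11 ± 0.27 (log2, SE). In liver it had 29.3, 49.9 and 56.6 CPM in the wild type and 32.0, 56.1 and 56.8 CPM in the knockout, a difference of 0.11 ± 0.33. In all 4 groups library 1 was the lowest, and the genotypes overlapped.

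Dnajb1, the stress-inducible HSP40 that hands clients to HSP70 and stimulates its ATPase, had 21.0, 27.1 and 27.1 CPM in wild-type brain and 22.1, 25.8 and 33.5 CPM in knockout brain. Its liver values were 12.6, 17.2 and 20.4 CPM in the wild type and 17.2, 13.7 and 22.7 CPM in the knockout. Knockout brain 3 was the highest of the 12 and wild-type liver 1 the lowest. The differences between genotypes were 0.10 ± 0.19 in brain and 0.10 ± 0.24 in liver (log2, SE).

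The constitutive chaperone gene Hspa8 had 778, 1005 and 999.5 CPM in wild-type brain and 839, 1000.2 and 901 CPM in knockout brain. Wild-type liver had 708, 926 and 1029 CPM and knockout liver 743, 818 and 1047 CPM. All 12 libraries lay within one narrow band, with library 1 at the lower edge of each group. Its 95% intervals bound the genotype difference between -0.37 and 0.30 in brain and between -0.46 and 0.42 in liver (log2).

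Hsp90aa1, whose product holds kinases and steroid receptors in a competent state, had 439, 559 and 545 CPM in wild-type brain and 472, 580.4 and 474 CPM in knockout brain. In liver it had 134, 184 and 147 CPM in the wild type and 154, 256 and 133 CPM in the knockout. Library 2 was the highest of each group, and knockout liver 2 stood above the other liver libraries. The liver difference was 0.24 ± 0.27 (log2, SE), the largest positive one of the 10 there, with an adjusted p of 0.992 by edgeR. Knockout liver 2 also stood apart in cell markers: the macrophage markers Csf1r, Cx3cr1 and Clec4f summed to 229.7 CPM there against 97.6 to 136 CPM in the other 5 liver libraries, and the hepatocyte markers to 49662 against 62511 to 83615 CPM. Their part in its values was not tested. Without that library the Hsp90aa1 difference was -0.11 on the log2 scale.

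Hspb1, the small heat-shock protein HSP25 that binds unfolding proteins without ATP, had 2.13, 1.89 and 4.32 CPM in wild-type brain and 2.42, 2.91 and 3.49 CPM in knockout brain. In liver it had 10.0, 12.3 and 11.5 CPM in the wild type and 12.5, 14.4 and 10.4 CPM in the knockout. Wild-type brain 3 was the highest brain library, and it was also the highest for the oligodendrocyte markers, at 2561 CPM against 752 to 1375 CPM in the other 5, and for the astrocyte markers Gfap, Aqp4 and Aldh1l1, at 365 against 154 to 264 CPM. The part of those cells in the Hspb1 value was not tested. Without that library the brain difference was 0.55 on the log2 scale, against 0.07 ± 0.36 (SE) with all 6, and it was not called in either case.

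Hspa5 encodes BiP, the HSP70 of the endoplasmic reticulum. It had 97.4, 109.7 and 118 CPM in wild-type brain and 105, 121 and 115 CPM in knockout brain, the brain difference with the smallest error of the 10 at 0.06 ± 0.11 (log2, SE). Liver values were 619, 658 and 583 CPM in the wild type and 574, 894 and 506 CPM in the knockout. Knockout liver held both the highest and the lowest of the liver values, and the difference was 0.10 ± 0.21. The highest was again knockout liver 2, and without it the difference was -0.20.

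Of the cold-inducible pair, Cirbp had 31.9, 24.0 and 25.6 CPM in wild-type brain and 31.1, 20.2 and 27.6 CPM in knockout brain. In liver it had 25.1, 16.2 and 13.9 CPM in the wild type and 18.3, 14.6 and 14.8 CPM in the knockout. Library 1 was the highest of its group each time, most clearly in wild-type liver. The genotype differences were -0.06 ± 0.19 in brain and -0.21 ± 0.22 in liver (log2, SE).

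Rbm3 had 59.4, 39.5 and 44.9 CPM in wild-type brain and 54.9, 32.2 and 50.9 CPM in knockout brain. Its liver values were 46.5, 44.2 and 39.3 CPM in the wild type and 39.6, 40.7 and 46.2 CPM in the knockout. In brain library 1 was highest and library 2 lowest for either genotype, while the 6 liver libraries stayed close together. The liver difference of -0.03 ± 0.10 (log2, SE) was the most precise of all, with a 95% interval from -0.27 to 0.21.

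Across the 10 genes the 95% intervals of the genotype difference reached from 0.576-fold to 1.91-fold in brain and from 0.356-fold to 2.60-fold in liver, so changes within those bounds were not detectable for every gene with 3 libraries a group. The genotype effect was also compared between the tissues with an interaction term, liver effect minus brain effect. edgeR called 0 of 10 members (background 0.0% of 20141 genes), and 0 had an unadjusted p under 0.05, beside 2.43% of all genes. DESeq2 called 0 members. The interaction was largest in size for Hspa1b, at -0.65 ± 0.54 (log2, SE).

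**Figure D2:**
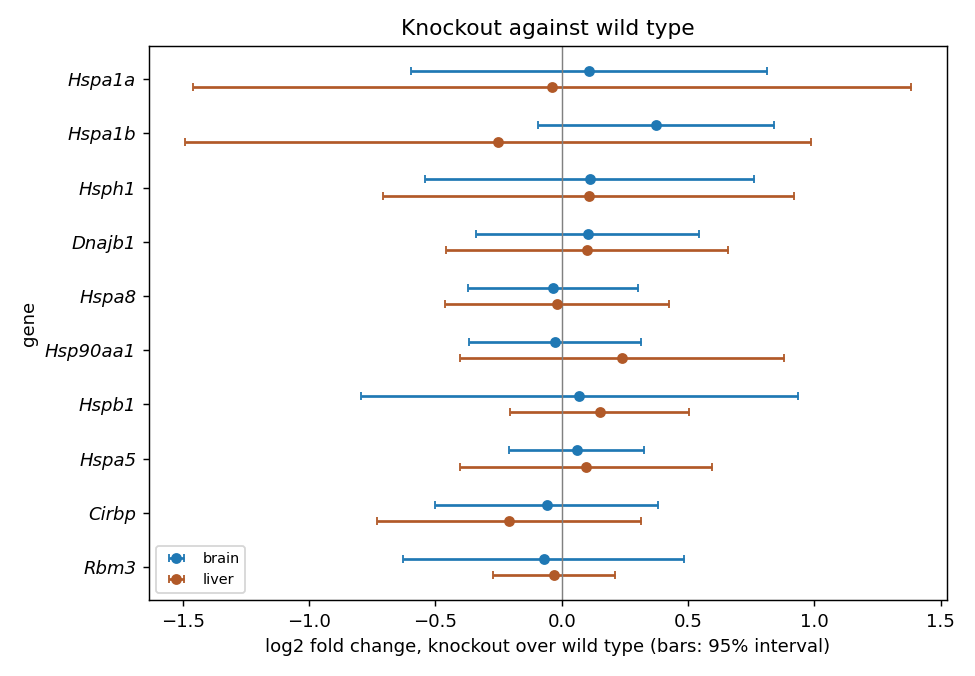
Knockout over wild type for the 10 genes in brain and liver, as log2 fold change from edgeR with 95% intervals (3 libraries a group). Every interval includes 0, and those of Hspa1a and Hspa1b in liver are the widest.

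The same question was put to 81 other genes of chaperone and temperature pathways, in lists that hold no member. They are the heat shock factors, HSP70 and HSP110 genes with their exchange factors, HSP40 and HSP90 co-chaperones, small heat-shock proteins, chaperones of the endoplasmic reticulum and of mitochondria, and temperature-linked RNA-binding proteins. edgeR called 0 of the 77 tested in brain, 0 of 75 in liver and 0 of 77 for the interaction. At an unadjusted p under 0.05 there were 0, 3 (4.0%) and 3 (3.9%), beside 0.675%, 3.5% and 2.43% of all genes. Their median log2 difference was 0.00 in brain and 0.00 in liver, beside -0.01 and 0.01 for all genes tested.

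The second comparison set brain against liver. In bulk tissue, fewer cells that express a gene and less RNA of it per cell cannot be told apart. Of the 10 genes, 7 differed between wild-type brain and wild-type liver (edgeR, adjusted p under 0.05), where 78.6% of all 18850 genes tested did. In the knockout 8 did, where 78.7% of 18785 did, so these counts are near the background. Hsp90aa1, Hsph1, Hspa1a and Dnajb1 were higher in brain in both genotypes, and Hspa5, Hspb1 and Hspa1b were higher in liver. That is 4 higher and 3 lower in the wild type, beside 43.9% and 34.7% of all genes, and 5 higher (with Cirbp) and 3 lower in the knockout, beside 43.5% and 35.2%. The libraries of the tissues did not overlap for 7 members in each genotype, nor did they for 82.4% of all genes. Hspa8 and Rbm3 did not pass the test in either genotype.

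Hsp90aa1 was 3.33-fold higher in wild-type brain than in wild-type liver, 1.74 ± 0.16 (log2, SE; edgeR adjusted p = 3.37e-05). In the knockout it was 2.78-fold higher, 1.47 ± 0.25 (edgeR adjusted p = 0.00110). Every brain library lay above every liver library. Hsph1 was 3.25-fold higher in wild-type brain, 1.70 ± 0.30 (edgeR adjusted p = 0.00103), and 3.27-fold higher in knockout brain, 1.71 ± 0.28 (edgeR adjusted p = 0.000801). Its lowest brain library, at 99.4 CPM, stood above its highest liver library, at 56.8 CPM.

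Dnajb1 was 1.503-fold higher in brain in the wild type, 0.59 ± 0.20 (log2, SE; edgeR adjusted p = 0.0257), and 1.51-fold higher in the knockout, 0.59 ± 0.22 (edgeR adjusted p = 0.0429). The tissues did not overlap in the wild type, but knockout liver 3 lay above knockout brain 1. In each genotype the call was lost without brain 2, brain 3, liver 1 or liver 2, with adjusted p between 0.0681 and 0.109 in the wild type and between 0.0885 and 0.175 in the knockout.

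Hspa5 was 5.70-fold higher in wild-type liver than in wild-type brain, -2.51 ± 0.12 (brain over liver, log2, SE; edgeR adjusted p = 9.43e-07). In the knockout it was 5.85-fold higher in liver, -2.55 ± 0.23 (edgeR adjusted p = 3.18e-05). Hspb1 was 4.04-fold higher in wild-type liver, -2.02 ± 0.32 (edgeR adjusted p = 0.000620), and 4.27-fold higher in knockout liver, -2.09 ± 0.21 (edgeR adjusted p = 5.13e-05). For both genes all 6 liver libraries stood above all 6 brain libraries.

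The HSP70 copies went in opposite directions. Hspa1a was 2.85-fold higher in wild-type brain, 1.51 ± 0.45 (log2, SE; edgeR adjusted p = 0.0162), a call that was lost without wild-type brain 3 (adjusted p = 0.0672) or wild-type liver 2 (adjusted p = 0.0564). In the knockout it was 3.16-fold higher in brain (edgeR adjusted p = 0.0110). Hspa1b was 4.88-fold higher in wild-type liver, -2.29 ± 0.31 (edgeR adjusted p = 0.000280), and 3.16-fold higher in knockout liver, -1.66 ± 0.39 (edgeR adjusted p = 0.00514).

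Hspa1a took 54.2% ± 6.06 of the summed counts in wild-type brain and 49.8% ± 3.29 in knockout brain (SD, n = 3). In liver it took 7.53% ± 1.61 in the wild type and 9.01% ± 2.34 in the knockout. Since most of the transcript is shared, this split rests on the reads that fall where the copies differ and on how the shared reads were assigned. Summed, the pair had 9.46, 10.4 and 12.7 CPM in wild-type brain, 9.14, 15.6 and 13.7 in knockout brain, 14.5, 26.0 and 37.7 in wild-type liver and 16.9, 13.2 and 35.8 in knockout liver. With TMM factors, wild-type liver lay above wild-type brain throughout, by 2.39-fold (edgeR adjusted p = 0.00759). The knockout tissues overlapped, and the difference of 1.73-fold did not pass the test (edgeR adjusted p = 0.0962). With library totals the wild-type tissues overlapped too. Wild-type liver 1 held 257.88 of 23659870 counts, a smaller share than the 213.62 of 16557831 in wild-type brain 1. The knockout mean was then no higher in liver. The liver excess of the sum thus depends on the scaling, and it was not tested with library totals.

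**Figure D3:**
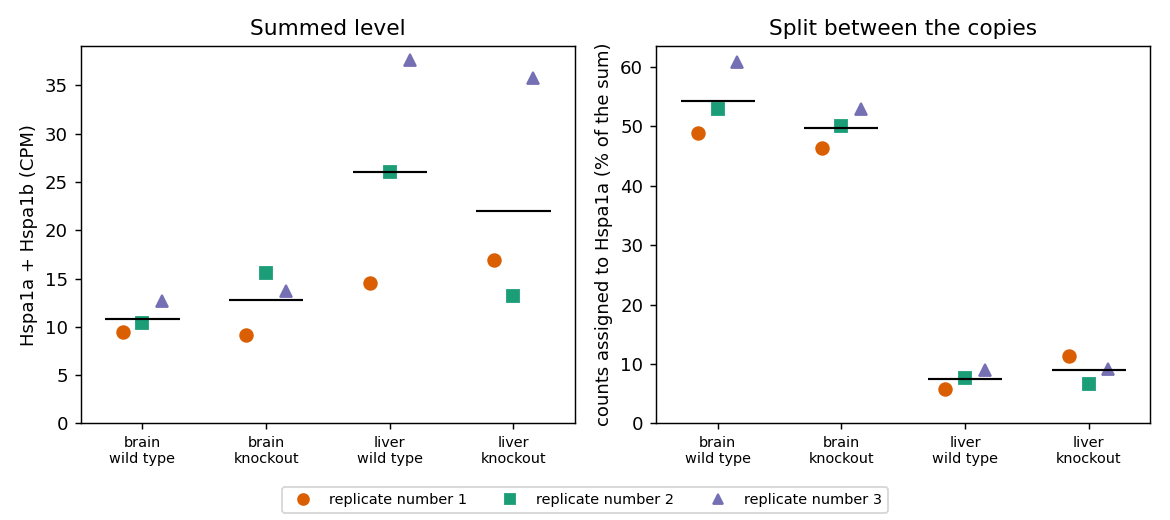
Left, summed level of Hspa1a and Hspa1b in CPM by group. Right, percent of the summed counts assigned to Hspa1a; points are libraries marked by number and lines are means of 3. In brain Hspa1a took between 46.4% and 60.8% of the counts, in liver between 5.83% and 11.3%.

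Of the cold-inducible genes, Cirbp was 1.64-fold higher in knockout brain than in knockout liver, 0.71 ± 0.19 (log2, SE; edgeR adjusted p = 0.00887). In the wild type the ratio was 1.48, 0.57 ± 0.23, and did not pass the test (edgeR adjusted p = 0.0537); wild-type liver 1, at 25.1 CPM, lay among the brain libraries, and without it the adjusted p was 0.00513. Wild-type Cirbp also passed the test by DESeq2 (adjusted p = 0.0402), with no filter on low counts (0.0439), with all 12 libraries in one fit (0.0384), with library totals (0.000727) and with the replicate block (0.00815). It did not with DESeq2 size factors in edgeR (0.0509) or without any of the other 5 wild-type libraries (0.0662 to 0.173). Rbm3 differed by 0.15 ± 0.16 in the wild type and 0.11 ± 0.20 in the knockout. Hspa8 differed by 0.07 ± 0.18 and 0.06 ± 0.17, with 95% intervals from -0.36 to 0.49 and from -0.34 to 0.45.

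Scaling matters for this contrast. With TMM factors the median log2 difference of all genes was 0.21 in both genotypes, and with library totals alone it was 1.05 in the wild type and 1.08 in the knockout. Higher calls made up 55.8% of the called genes in the wild type with TMM and 74.4% with library totals, and 55.3% and 75.1% in the knockout. No member changed sign, but with library totals Hspa8 and Rbm3 were called higher in brain in both genotypes, Cirbp was also called in the wild type, and Hspa1b in the knockout lost its call. A change of scaling shifts all genes by nearly the same amount, so values relative to the median of all genes hardly depend on it. In the wild type Hsp90aa1 stood at 1.53 and Hspa5 at -2.72 relative to that median, while Hspa8 (-0.14) and Rbm3 (-0.06) lay slightly under it.

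**Figure D4:**
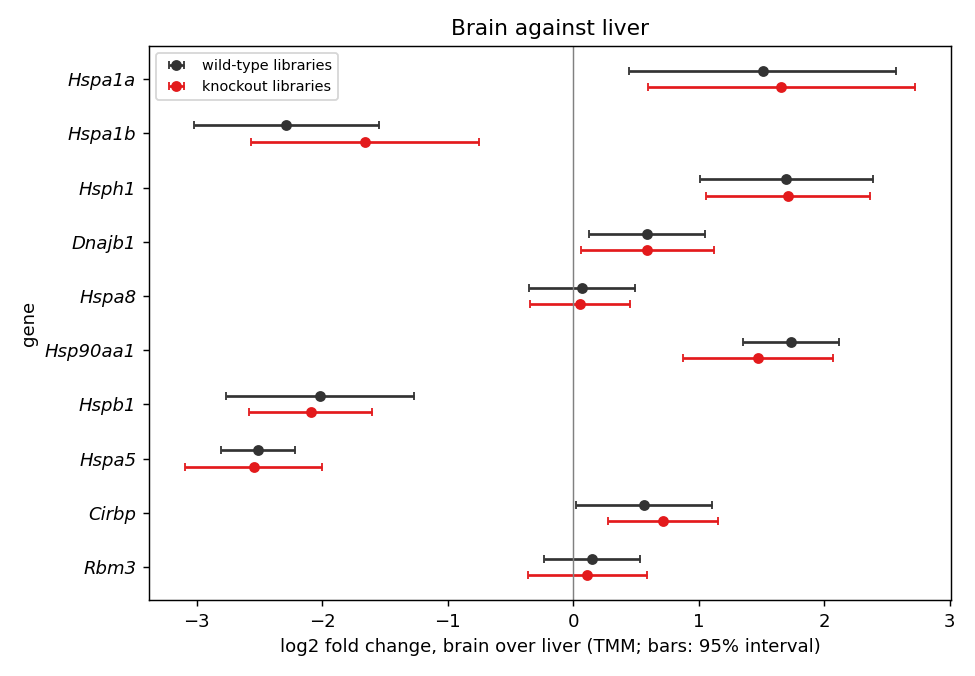
Brain over liver for the 10 genes in wild-type and knockout libraries, as log2 fold change from edgeR with TMM scaling and 95% intervals (3 libraries a group). Hsp90aa1, Hsph1, Hspa1a and Dnajb1 lie to the right of 0 and Hspa5, Hspb1 and Hspa1b to the left in both genotypes; with library totals every point moves to the right by about the shift in the median of all genes.

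Other chaperone lists were compared between the tissues as well, beside the shares of all genes. With TMM, 43.9% of all genes were called higher and 34.7% lower in wild-type brain, and 43.5% and 35.2% in knockout brain. With library totals, 61.7% of genes were higher and 21.2% lower in wild-type brain, against 62.1% higher and 20.6% lower in knockout brain.

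Hspa5 shared its direction with most other genes of its compartment. Of 18 other genes of endoplasmic reticulum chaperones and the unfolded protein response, 17 were lower in brain than in liver in either genotype (edgeR, beside 34.7% and 35.2% of all genes), with a median log2 difference of -2.32 in the wild type and -2.56 in the knockout, beside 0.21 for all genes. With library totals 14 of 18 were lower and 1 was higher in each genotype. Pdia4, a disulfide isomerase of the compartment, stood at 25.3 ± 3.87 CPM in wild-type brain and 270.3 ± 25.5 CPM in wild-type liver (SD, n = 3), a log2 difference of -3.41. The exception, Ddit3, had a wild-type difference of 0.47 ± 0.34 (log2, SE) and was chosen here after its value was seen.

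Mitochondrial chaperone genes were also lower in brain, 6 of 7 in either genotype (beside 34.7% and 35.2% of all genes), with medians of -2.08 in the wild type and -2.10 in the knockout; with library totals 5 were lower and 1 was higher. Hspe1, the co-chaperonin HSP10, differed by -2.08 ± 0.10 in the wild type and -2.10 ± 0.10 in the knockout (log2, SE). Trap1, the mitochondrial HSP90, differed by -2.29 ± 0.09 in the wild type, and Hspd1, the chaperonin HSP60, by -2.46 ± 0.11 in the knockout. Both values are for brain over liver.

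The cytosolic lists were mixed, with 50% to 53.8% of the HSP70, HSP40 and RNA-binding lists called higher, near the share of all genes. Lower calls became fewer with library totals in all but the small heat-shock proteins. That scaling shifts all genes by nearly the same amount, so such a change is not particular to these lists. Lower calls among all genes fell too, from 34.7% to 21.2% in the wild type. Of 13 HSP70 and HSP110 genes and exchange factors tested, 7 were higher and 4 lower in brain in each genotype; with library totals 10 were higher in wild-type brain and 11 in knockout brain, and 1 was lower in each. Hspa12a, an atypical HSP70 family member, had 176 ± 31.6 CPM in wild-type brain and 3.04 ± 0.0886 CPM in wild-type liver, and Hspa4l, an HSP110 relative, 199 ± 18.9 and 34.4 ± 2.35 CPM (SD, n = 3). Of 10 HSP40 co-chaperones, 5 were higher in brain in each genotype, with 1 lower in the wild type and 2 in the knockout, whereas with library totals 9 and 10 were higher and 0 lower. Dnajc6, the neuronal auxilin that uncoats clathrin vesicles, had 203, 268 and 235 CPM in wild-type brain, while its 3 wild-type liver libraries held 3, 4 and 8 counts. Dnajb5 differed by 4.34 ± 0.24 (log2, SE) in the knockout.

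Of 12 HSP90 genes and co-chaperones, 1 was higher in brain and 7 were lower in each genotype, unlike the member Hsp90aa1. The direction of the calls turned with library totals, where 7 were higher in each genotype and 0 were lower in the wild type and 2 in the knockout. Relative to all genes the list lay low either way. Its wild-type median log2 difference was -0.45 beside 0.21 for all genes with TMM, and 0.39 beside 1.05 with library totals. Small heat-shock proteins gave 1 higher and 2 lower of 4 tested in the wild type, and 2 and 2 of 5 in the knockout, with the same counts under library totals. Hspb8, a partner of the exchange factor BAG3, differed by -4.42 ± 0.14 in the knockout (log2, SE). The 8 temperature-linked RNA-binding genes split evenly, with 4 higher and 4 lower in both genotypes, but with library totals 6 were higher and 0 lower. Of 4 heat shock factor genes, 1 was higher and 1 lower in wild-type brain. Against knockout liver, 2 were higher and 1 was lower in knockout brain. With library totals 3 were higher and 0 lower in each genotype.

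The third comparison set the libraries that carry number 1, 2 or 3 against each other within a tissue, with genotype as a covariate. The labels do not say what a number stands for, so it names pairs of libraries and no condition. In brain edgeR called 1 of the 10 genes, Rbm3 (adjusted p = 0.0473), where 7.93% of 18075 genes were called. At an unadjusted p under 0.05 there were 6 of 10, beside 25.3% of all genes. In liver edgeR called 1 of 10, Hsph1 (adjusted p = 0.0176), where 1.02% of 15329 genes were called, and 7 of 10 had an unadjusted p under 0.05, beside 12.9%.

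In brain both libraries numbered 1 lay below the other 4 for 6 members: Hspa1a, Hsph1, Dnajb1, Hspa8, Hsp90aa1 and Hspa5. This was so for 17.3% of all genes. They lay above the other 4 for Cirbp and Rbm3, as for 20.4% of all genes. The libraries numbered 2 were the highest pair for Hsph1, Hspa8 and Hsp90aa1 (16.3% of all genes) and the lowest for Cirbp and Rbm3 (15.6%). Those numbered 3 were the highest pair for Hspb1 (5.24%). In brain, then, each chaperone gene of the first set and the cold-inducible pair stood at opposite ends in the libraries numbered 1. With library totals in place of TMM this order was lost for Hsp90aa1 in libraries numbered 1 and 2 and for Hspa8 in those numbered 2, and Dnajb1 was also highest in those numbered 3.

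Cell markers also moved with the brain numbers. The microglia and macrophage markers Csf1r, Cx3cr1 and Clec4f summed to 44.4 and 49.9 CPM in the libraries numbered 1 (wild type, then knockout), 72.0 and 73.1 in those numbered 2 and 61.4 and 61.2 in those numbered 3. Clec4f had no count in brain. The neuron markers summed highest in the libraries numbered 2, at 3173 and 3031 CPM against 2362 to 2700.3 CPM in the other 4. Among the neuron markers, Rbfox3 did not follow that order and averaged 0.874 times as much in brain 2 as in brain 1. In the libraries numbered 2 the choroid plexus markers were at 2.91 and 5.204 CPM, as low as in knockout brain 3 (6.48 CPM), against 176 to 468 CPM in the other 3. The part of these cells in the order of the members was not tested.

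Rbm3 averaged 1.36 times as much in brain 1 as in the mean of brain 2 and 3, and Cirbp 1.30 times. Hsph1 averaged 0.654 times as much in brain 1, Hspa1a 0.627 times and Dnajb1 0.758 times. By edgeR the adjusted p was 0.0579 for Hsph1, 0.0777 for Cirbp and 0.0860 for Dnajb1. The Rbm3 call was lost when any single brain library numbered 1 or 2 was left out, with adjusted p between 0.139 and 0.393. The number of genes called in brain changed from 1433 to between 50 and 3571 as single libraries were left out.

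In liver the libraries numbered 3 were the highest pair for Hspa1a, Hspa1b, Hsph1, Dnajb1 and Hspa8, as for 10.7% of all genes. Those numbered 1 were the lowest pair for Hsph1 and Hspa8 (6.11%) and the highest for Cirbp (9.66%). Those numbered 2 were the highest pair for Hsp90aa1 and Hspa5 (7.5%). Hsph1 averaged 0.559 times as much in liver 1 as in the mean of liver 2 and 3, and Cirbp 1.45 times. Hspa1b averaged 2.33 times as much in liver 3 as in liver 1, and Hspa1a 2.42 times, with an adjusted p by edgeR of 0.200 and 0.385. For their sum the adjusted p was 0.261 in liver and 0.188 in brain. Rbm3 in liver differed little between numbers, by 1.01 times from the lowest to the highest. The orders named for liver were the same with library totals. Cell markers moved with the liver numbers too. The hepatocyte markers summed highest in the libraries numbered 3, at 82111 and 83615 CPM against 49662 to 76754 CPM in the other 4. Among the hepatocyte markers, Cps1 was instead highest in number 1 on average, with 0.952 times as much in liver 3 as in liver 1. The macrophage markers were highest in the libraries numbered 2, at 136 and 229.7 CPM against 97.6 to 134 CPM. The part of these cells in the orders was not tested.

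The Hsph1 call in liver was lost without liver 1 or liver 3 of either genotype or without knockout liver 2, with adjusted p between 0.0538 and 0.169, and it held without wild-type liver 2. DESeq2 called 4 members in liver, Hspa1b, Hsph1, Hspa8 and Hsp90aa1, and 2 in brain, Hsph1 and Rbm3. It also called more genes, 529 in liver and 1626 in brain, against 157 and 1433 with edgeR.

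Taking the 4 groups separately, library 1 was the lowest of the 3 in each for Hsph1 and Hspa8, which held for 2.21% of the 13308 genes with a mean of at least 10 counts in every group. Library 1 was the highest in each for Cirbp, as for 4.45% of those genes. The red cell markers Hba-a1, Hbb-bs and Alas2 in sum were also highest in library 1 of each group, at 8.99, 8.56 and 5.99 CPM in wild-type brain, 11.8, 8.14 and 5.28 in knockout brain, 149.6, 117 and 106 in wild-type liver and 159, 155 and 132 in knockout liver. Among the red cell markers, Alas2 averaged 1.13 times as much in brain 2 as in brain 1. The part of red cells in the Cirbp order was not tested. Library 2 was the highest in each for Hsp90aa1, as for 2.94%. No other member had the same library number at the same end in all 4 groups.

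**Figure D5:**
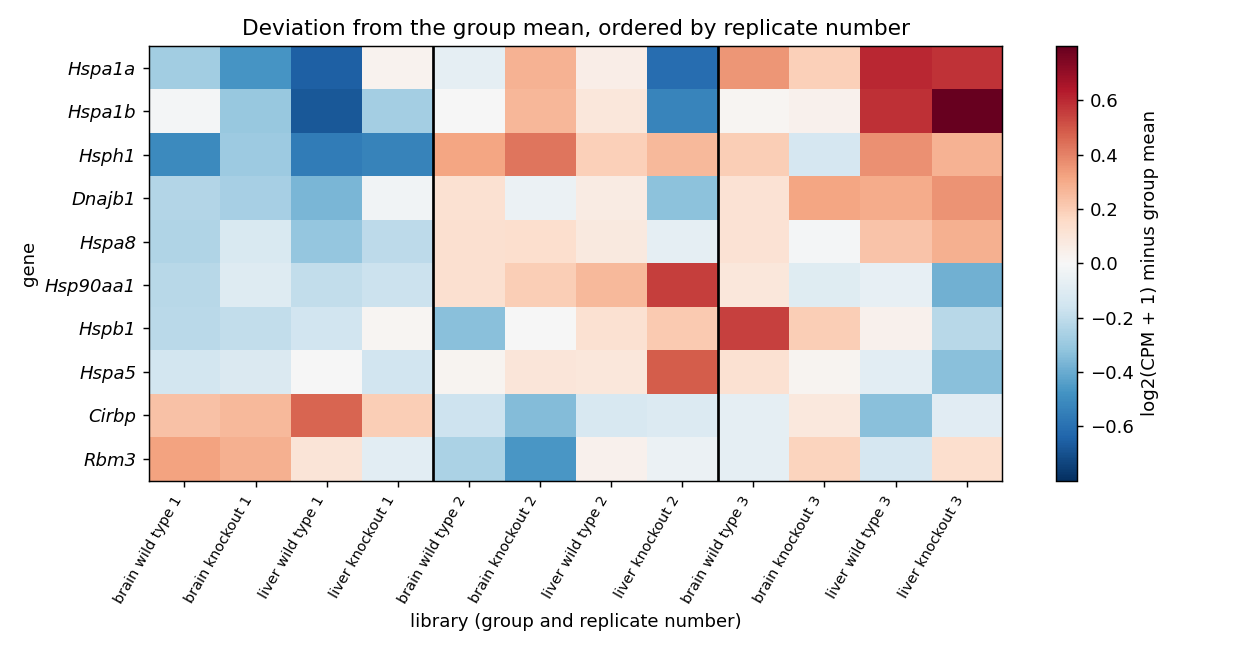
Deviation of log2(CPM + 1) from the mean of its group, for the 10 genes in rows and the 12 libraries in columns, ordered by the number in the title; red is above and blue below the group mean. In the 4 columns numbered 1, Hsph1 and Hspa8 are blue and Cirbp is red throughout, and Hspa1a and Hspa1b are reddest in both liver libraries numbered 3.

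The clock genes, a list of 6, are given beside these values; all but Arntl were named here after their values were seen. Across numbers in liver edgeR called 1 of 6, beside 1.02% of all genes, and 5 of 6 had an unadjusted p under 0.05, beside 12.9%. In brain it called 0 of 6, beside 7.93% of all genes, with 4 of 6 under 0.05, beside 25.3%. In liver Arntl, the clock activator BMAL1, had 11.6 to 19.5 CPM in the libraries numbered 1, 12.3 to 15.4 in those numbered 2 and 3.30 to 3.81 in those numbered 3 (edgeR adjusted p = 0.0144). That call was lost without liver 3 of either genotype or without knockout liver 1 (0.0529 to 0.135). Per1, a repressor of the clock that also answers to heat shock and glucocorticoids, had 13.0 to 14.9, 18.4 to 35.7 and 86.4 to 94.7 CPM in the same order and did not pass the test (edgeR adjusted p = 0.0779). Its relative Per2 had 16.1 to 23.3, 24.2 to 24.5 and 45.3 to 63.3 CPM (edgeR adjusted p = 0.172).

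The clock output gene Dbp had 41.6 to 80.7, 47.8 to 71.1 and 124 to 141 CPM in liver (edgeR adjusted p = 0.0881), and the repressor Ciart 0.737 to 3.72, 2.37 to 2.84 and 10.0 to 13.5 CPM (edgeR adjusted p = 0.338). The libraries numbered 3 in liver, the highest pair for Hspa1a and Hspa1b, were thus also the highest for Per1, Per2, Dbp and Ciart and the lowest for Arntl. Nr1d1, which encodes the repressor REV-ERBα, had 234 to 247, 155 to 229.9 and 164 to 195 CPM, with those numbered 1 the highest (edgeR adjusted p = 0.568). In brain Per1 had 52.1 to 58.8, 83.4 to 100.4 and 90.7 to 156 CPM (edgeR adjusted p = 0.101). The part of the clock, the time of dissection or handling in the differences between numbers was not tested.

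Among the 81 other chaperone and temperature genes, edgeR called 2 of 77 across numbers in brain, where 7.93% of all genes were called. Dnajb5 had 63.0, 98.2 and 82.8 CPM in wild-type brain and 66.3, 105 and 121 CPM in knockout brain (adjusted p = 0.0427 by edgeR). Rtn3, a reticulon that is induced by RBM3, had 468, 720.0 and 604 CPM in wild-type brain and 486, 666 and 554 CPM in knockout brain (adjusted p = 0.0451 by edgeR), with libraries numbered 1 the lowest of both genotypes. Both calls were lost without any single brain library numbered 1 or 2, with adjusted p between 0.100 and 0.419 for Dnajb5 and between 0.134 and 0.489 for Rtn3, and that of Rtn3 also with library totals (0.0636). In liver it called 1 of 75, where 1.02% of all genes were called: Herpud1, a component of degradation at the endoplasmic reticulum, had 238, 306 and 521 CPM in the wild type and 198, 196 and 489 CPM in the knockout (adjusted p = 0.0259 by edgeR). Its call was lost without liver 1 or liver 3 of either genotype (0.0529 to 0.184). At an unadjusted p under 0.05 there were 19 of 77 in brain, or 24.7%, beside 25.3% of all genes, and 14 of 75 in liver, or 18.7%, beside 12.9%.

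How alike genes varied among libraries of 1 group was described by Pearson's r of the deviations of log2(CPM + 1) from the group mean over the 12 libraries, across 13308 genes. The points share libraries and scaling, so r is a description. Hsph1 and Cirbp were nearly mirror images, with r = -0.94; how many genes reach an r of that size was not counted. Among the members Hsph1 was most alike to Hspa8 (r = 0.90), followed by Hspa1b (0.59), Hspa1a (0.56), Hsp90aa1 (0.52) and Dnajb1 (0.51), and it had r = -0.63 with Rbm3. Hspa5 (0.33) and Hspb1 (0.24) followed it least.

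Cirbp had r = 0.70 with Rbm3 and -0.86 with Hspa8, and lower values in size with Hspa1a and Hspa1b (-0.66 each). Outside the members, the genes most alike to Hsph1 were Capn3, Jak1 and Selenok, with r of 0.94, 0.94 and 0.92. Those most alike to Cirbp were Wdr5b, Gm37979 and Rnf6, with r of 0.97, 0.97 and 0.96. Gm37979 was low, between 0.505 CPM in knockout liver 3 and 1.46 CPM in wild-type liver 1. In wild-type brain Capn3, a calpain protease, had 1.07, 2.26 and 2.02 CPM, low in library 1 as Hsph1 was. Wdr5b had 3.94, 2.75 and 3.38 CPM there, high in library 1 as Cirbp was.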

How the data were processed

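Total RNA of brain and liver was sequenced in 12 stranded, ribosomal RNA-depleted libraries with single-end reads, per the labels' protocols. The authors deposited 1 table of expected counts per gene and library, neither normalized nor pooled. The submitters' processing notes name cutadapt, STAR and mm10; how reads were counted, and whether by strand, is not given in the sources used here. All 55450 gene identifiers and symbols matched GENCODE M21. No column lacked a sample.

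Groups and numbers came from titles and genotype labels. The members and the lists were chosen with earlier results of these data known. Expected counts were rounded and tested with edgeR 4.0.16 in R 4.3.3 (quasi-likelihood, robust, TMM factors within each fit, filterByExpr with a minimum of 10 counts and a total of 15), with Benjamini-Hochberg adjustment over all genes tested and a threshold of 0.05. SE is the log2 change over the square root of F, and 95% intervals use the t distribution with the fit's degrees of freedom. DESeq2 1.42.0 was an alternative, as were its size factors, library totals, no low-count filter (1 count), summed HSP70 copies, the replicate block, all libraries in one fit and leaving out each library. The procedure was tested on simulated data. CPM used unrounded counts.

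Named were the 10 members, up to 3 called list genes per direction and comparison with the smallest p, and the 3 genes most alike to Hsph1 and to Cirbp; exceptions are marked. Same-numbered liver libraries deviated together (r of 0.33 to 0.39 across genes), though the labels state no pairing. The genotype values above come from fits without a block by number. With the replicate block, 983 liver genes had an unadjusted p under 0.05 by edgeR in place of 536. It called 2 liver genes between genotypes in place of 0, none of them a member.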

Additional observations from a re-analysis of the deposited data

How the results depend on the processing

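No member was called between genotypes under any alternative tried. As single libraries were left out, the log2 difference changed sign in brain for Hspa1a (-0.0496 to 0.348), Hsph1 (-0.125 to 0.269), Dnajb1 (-0.0786 to 0.233), Hspa8 (-0.150 to 0.0313), Hsp90aa1 (-0.133 to 0.0383), Hspb1 (-0.141 to 0.549), Hspa5 (-0.0159 to 0.131), Cirbp (-0.195 to 0.110) and Rbm3 (-0.214 to 0.140). It did so in liver for Hspa1a (-0.581 to 0.505), Hspa1b (-0.816 to 0.0929), Hsph1 (-0.125 to 0.344), Dnajb1 (-0.125 to 0.267), Hspa8 (-0.187 to 0.0996), Hsp90aa1 (-0.109 to 0.410), Hspa5 (-0.201 to 0.246), Cirbp (-0.374 to 0.0808) and Rbm3 (-0.114 to 0.0289). For the interaction it did so for Hspa1a (-0.693 to 0.374), Hsph1 (-0.266 to 0.274), Dnajb1 (-0.235 to 0.192), Hspa8 (-0.165 to 0.152), Hsp90aa1 (-0.0946 to 0.419), Hspb1 (-0.390 to 0.280), Hspa5 (-0.273 to 0.171), Cirbp (-0.331 to 0.119) and Rbm3 (-0.143 to 0.167). Between tissues only the uncalled Hspa8 (-0.0851 to 0.173 in the wild type, -0.0678 to 0.191 in the knockout) and Rbm3 (-0.0486 to 0.206 and -0.0233 to 0.287) changed sign.

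The interaction also changed sign with DESeq2 size factors for Hsph1 (0.000262), Dnajb1 (0.00302) and Hspa8 (0.0196), and with the DESeq2 test for Hsph1 (0.000924), Dnajb1 (0.00329) and Hspa8 (0.0196). It did so with library totals for Hspa5 (-0.0115) and with the replicate block for Hspb1 (-0.00326) and Hspa5 (-0.0298). The cause was not tested.

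The genes called between genotypes in liver numbered 10 by DESeq2, 4 with no filter on low counts, 2 with the replicate block and 0 to 1 with a library left out, and those of the interaction 1 by DESeq2 and 2 with the replicate block. Across replicate numbers DESeq2 called 529 genes and 4 members in liver and 2 members in brain; with no filter the counts were 623 and 2 in liver and 2400 and 4 in brain. With a library left out they ranged from 50 to 3571 genes and 0 to 4 members in brain, and from 22 to 208 genes and 0 to 2 members in liver. Where that leaves 1 library for a number, it is assumed to vary like the others.

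Same-numbered brain libraries correlated at 0.74, 0.70 and -0.04 for numbers 1, 2 and 3, against -0.76 and -0.70 between numbers 1 and 2. Deviations within a group sum to 0, so the values between numbers follow in part from those of the same number. Numbers 1 and 2 went together in brain and number 3 did not. The main genotype fits used no block in either tissue. With the replicate block 406 brain genes had an unadjusted p under 0.05 by edgeR in place of 122, and 0 were called. Same-numbered libraries of brain and liver correlated between -0.00 and 0.07. The labels do not say whether they share an animal or a batch, and these values cannot tell. With the replicate block, Cirbp passed the test between wild-type tissues (edgeR adjusted p = 0.00815), and no other member's call changed. The liver block changed no member's call. The fewest counts per library were 15.04 for Hspa1a in liver and 46 for Hspb1 in brain.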
